A study of Mus musculus with 15 samples.

Results

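This section follows 10 genes, chosen by name out of the 32285 genes in the count matrices, that encode transcription regulators of meiotic and post-meiotic male germ cells: Mybl1, Tcfl5, Zfp541, Kctd19, Rfx2, Sox30, Crem, Fhl5, Tbpl1 and Taf7l. Single-cell RNA sequencing was performed on 15 mouse testis libraries, each from 1 testis of 1 DBA/2J male. T males (n = 3) received 50 mg/kg JQ1, a small-molecule bromodomain inhibitor, by daily intraperitoneal injection for 3 wk and were analyzed at 10 wk of age, as were VC-T males (n = 3), which received the vehicle of DMSO in (2-hydroxypropyl)-β-cyclodextrin. R (n = 3) and VC-R (n = 3) males were given JQ1 or vehicle for the same 3 wk, recovered for 6 wk and were 16 wk old, and UC males (n = 3) were untreated and 15 wk old. UC males therefore differed from T males in age and injection as well as in drug, and these cannot be told apart in that comparison.

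Male germ cells leave the mitotic cycle as spermatogonia, pair and recombine their chromosomes as leptotene, zygotene and pachytene spermatocytes, divide, and become haploid spermatids that replace histones with transition proteins and protamines. Transcription surges at pachytene and again in round spermatids, and each surge depends on regulators made mainly in the germline. JQ1 displaces bromodomain proteins, including the testis-specific BRDT, from acetylated chromatin, and the comparison of T with its controls asks how the messages of these regulators stood in the cells that remained under the drug.

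Libraries held 9673587 to 98724982 unique molecular identifiers (UMIs), and 72362 cells were kept after filters, 2430 to 12744 per library. Cells were grouped into 32 clusters without using the 10 genes or their listed partners and targets, and clusters were named only from germ and somatic marker lists. No pair of libraries shared more than 25 cell barcodes. The library VC-T 1 stood apart from VC-T 2 and VC-T 3. It had 0 spermatozoa-like cells, against 911 and 1482 in the other VC-T libraries and 1, 1 and 3 in T, and the study itself left it out of differential expression. It is left out of the T versus VC-T comparison here and its values for the genes that passed are given beside the result.

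Levels are given first in the UC testis, as CPM (the UMIs of a gene over all UMIs of a stage, summed per library and scaled to a common total), mean ± SD over the 3 UC libraries. These are levels of one gene across stages and are not compared between genes. The 3′ UMI counts do not separate transcript isoforms, so the Crem value sums activator and repressor forms. Free RNA puts germ cell UMIs into every droplet: pooled UC Leydig-, macrophage- and myoid-like cells (102 cells, 256400 UMIs), which are not known for using most of these genes, read 187 CPM for Fhl5, 211 for Crem, 324 for Tbpl1, 121 for Tcfl5, 66.3 for Sox30, 42.9 for Rfx2, 31.2 for Kctd19, 27.3 for Zfp541, 23.4 for Taf7l and 11.7 for Mybl1. Germ cell levels at or below these values are not read as expression. The somatic levels are pooled, rest on 3 UMIs (Mybl1) to 83 UMIs (Tbpl1), and are no floor, since germ cells can lie well below them. Crem is also used and induced in somatic cells, so its somatic level is not free RNA alone.

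The regulators of meiotic entry and pachytene came first. Mybl1 (chr1:9667415-9700209, minus strand, GRCm38), which encodes A-MYB, the activator of the pachytene transcription surge and of piRNA precursors, was highest in leptotene-zygotene-like cells at 160 ± 27.0 CPM (SD, n = 3), followed by pachytene-like cells at 111 ± 20.6 and late pachytene to dividing cells at 64.1 ± 8.13, with no overlap between neighbouring stages. It was at 12.0 ± 1.79 CPM in spermatid-like cells, near the somatic level, and leptotene-zygotene-like cells held its highest level in all 15 libraries. Tcfl5 (chr2:180621956-180642708, minus strand), a basic helix-loop-helix factor needed for pachytene progression, reached 497 ± 44.0 CPM in pachytene-like and 460 ± 63.5 in late pachytene to dividing cells, and these overlapped. It remained at 205 ± 15.9 in spermatid-like and 195 ± 15.7 in spermatozoa-like cells, which also overlapped and lay above the somatic level.

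Zfp541 (chr7:16061814-16096334, plus strand) and Kctd19 (chr8:105382807-105413502, minus strand) encode subunits of a germline histone deacetylase complex that acts at the exit from pachytene. Zfp541 was at 127 ± 23.3 CPM in pachytene-like and 119 ± 18.3 in leptotene-zygotene-like cells, and Kctd19 was at 223 ± 18.5, 208 ± 28.7 and 192 ± 36.2 CPM in leptotene-zygotene-like, pachytene-like and late pachytene to dividing cells. Within each gene these stages overlapped. Over 18 points (6 stages in each of 3 UC libraries, which share depth and free RNA within a library), the gene most like Zfp541 among 11978 genes compared was Kctd19, with a Pearson r of 0.99 on log2(CPM + 1), followed by Katnal2 and Spag16 (both 0.98). Kctd19 itself was most like Katnal2 (0.99), Zfp541 and Dnaic1 (0.99). Rfx2 (chr17:56775897-56831013, minus strand), a winged-helix factor for cilium and flagellum genes, was nearly level from leptotene-zygotene-like (83.1 ± 1.06 CPM) to late pachytene to dividing cells (94.7 ± 31.0) and was at 52.4 ± 5.4 in spermatid-like cells. Its nearest genes were Cchcr1 (0.98), Samd15 (0.97) and the axonemal gene Hydin (0.97).

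Tbpl1 (chr10:22703879-22731938, minus strand), the TBP-like factor TRF2 that takes the place of TBP at many testis promoters, was 1050 ± 59.7 CPM in late pachytene to dividing cells, above pachytene-like (716 ± 40.1) and spermatid-like cells (507 ± 28.2) with no overlap. By spermatozoa-like cells it stood at 57.2 ± 14.1 CPM, below its somatic level. Its nearest genes were Ndufa12, Pnpla2 and Hagh (0.99, 0.98 and 0.98).

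The spermatid regulators followed. Crem (chr18:3266048-3337748, minus strand), the cAMP-responsive master factor of round spermatid genes, was 533 ± 39.4 CPM in spermatid-like cells and 289 ± 28.8 in late pachytene to dividing cells, and 68.7 ± 4.82 in spermatozoa-like cells. Fhl5 (chr4:25199908-25242876, minus strand), or ACT, a LIM-domain coactivator that binds CREM without phosphorylation, stayed high later, at 473 ± 39.3 CPM in spermatid-like and 385 ± 10.2 in spermatozoa-like cells. In spermatocytes it was below the somatic level in each UC library, although UC 1 stood apart in pachytene-like cells (140 CPM, against 12.7 in UC 2 and 20.2 in UC 3). Sox30 (chr11:45980310-46017994, plus strand), a high-mobility-group factor needed to enter spermiogenesis, was 165 ± 14.5 CPM in spermatid-like cells, 100 ± 4.31 in spermatozoa-like and 96.2 ± 16.9 in leptotene-zygotene-like cells. The last pair overlapped, and between them, in late pachytene to dividing cells, Sox30 was at 42.7 ± 5.59 CPM, below its somatic level. Crem, Fhl5 and Sox30 were highest in spermatid-like cells in 15 of 15 libraries. The genes most like Crem were Oit1, 2810402E24Rik and Pcsk4 (0.98, 0.97 and 0.97), those most like Fhl5 were Tbc1d21, Tescl and 1700003P14Rik (0.99, 0.98 and 0.98), and Sox30 had the loosest match, Ndfip2 at 0.94.

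Taf7l (chrX:134460118-134476490, minus strand), an X-linked variant of the TFIID subunit TAF7, was the one member highest before meiosis. It was 345 ± 51.5 CPM in spermatogonia-like cells and 117 ± 45.4 in leptotene-zygotene-like cells, and at or below the somatic level afterwards, with 1.66 ± 1.24 in pachytene-like cells, when the X chromosome is silenced. The leptotene-zygotene-like value is a mean over unlike clusters, since in UC cluster 23 was at 283 CPM and cluster 19 at 0. Its nearest genes were Smad4, Fzd3 and Ecsit (0.97, 0.97 and 0.97). Among the 10 genes the least alike pair was Mybl1 and Fhl5 (r = -0.69 over the same 18 points).

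**Figure D1:**
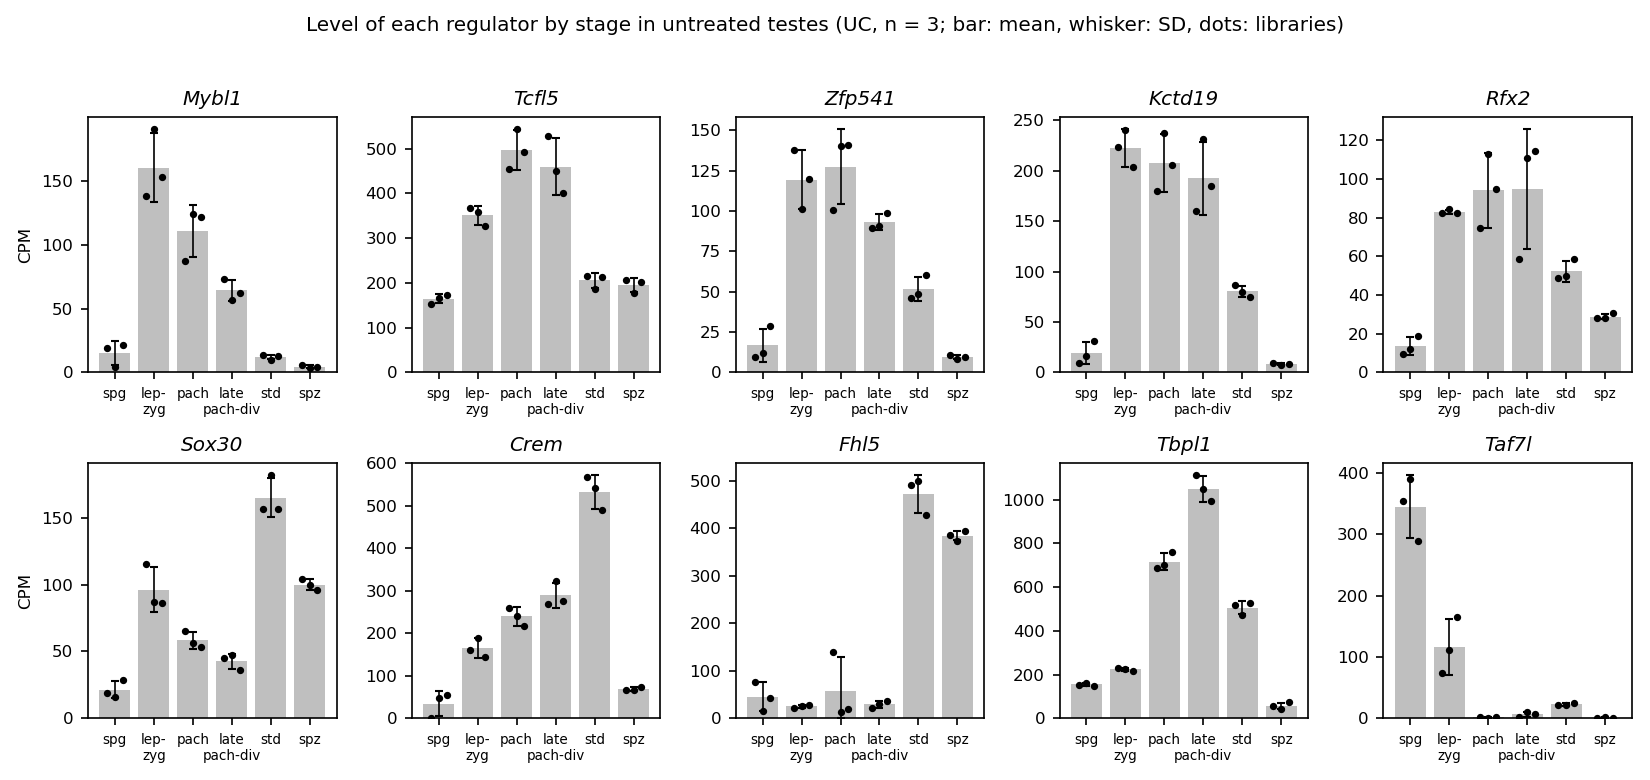
Level of each of the 10 genes (CPM, linear axis from 0, its own scale per panel) in 6 germ cell stages of the UC testes: spermatogonia-like (spg), leptotene-zygotene-like (lep-zyg), pachytene-like (pach), late pachytene to dividing (late pach-div), spermatid-like (std) and spermatozoa-like (spz). Bars are means of 3 libraries, whiskers SD and dots libraries, and the highest bar moves from spg (Taf7l, 345 CPM) through late pach-div (Tbpl1, 1050) to std (Crem, 533, and Fhl5, 473).

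Ordering the germ cells along pseudotime in 25 bins of equal cell number placed each maximum in a bin. Over the 8 control libraries (UC, VC-R, VC-T 2 and VC-T 3), the median bin of the highest level was 1 for Taf7l, 2 for Mybl1 and Kctd19, 4 for Tcfl5, 5.5 for Zfp541, 6.5 for Rfx2, 8 for Tbpl1, 12 for Crem and 16 for Sox30 and Fhl5. The ranges over these libraries overlapped: 2 to 6 for Mybl1 and Kctd19, 3 to 6 for Tcfl5 and 4 to 7 for Zfp541. For Rfx2 the range was 4 to 9 and for Tbpl1 6 to 10. In UC alone the medians of Zfp541 and Rfx2 were 7 and 5, so the order from Mybl1 to Rfx2 is not resolved. Crem thus peaked before its coactivator: in UC the bin of the Crem maximum was 11 to 13 and that of Fhl5 was 16 to 17, where Fhl5 reached 978 to 1084 CPM. A cluster that the markers left unnamed, between spermatid-like and spermatozoa-like cells, had Fhl5 at 1119 CPM, Sox30 at 250.4 and Crem at 203 CPM over its 421 UC cells, and T libraries had 3 of its 1637 cells. It enters the tests that follow only in an alternative with unnamed clusters included.

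**Figure D2:**
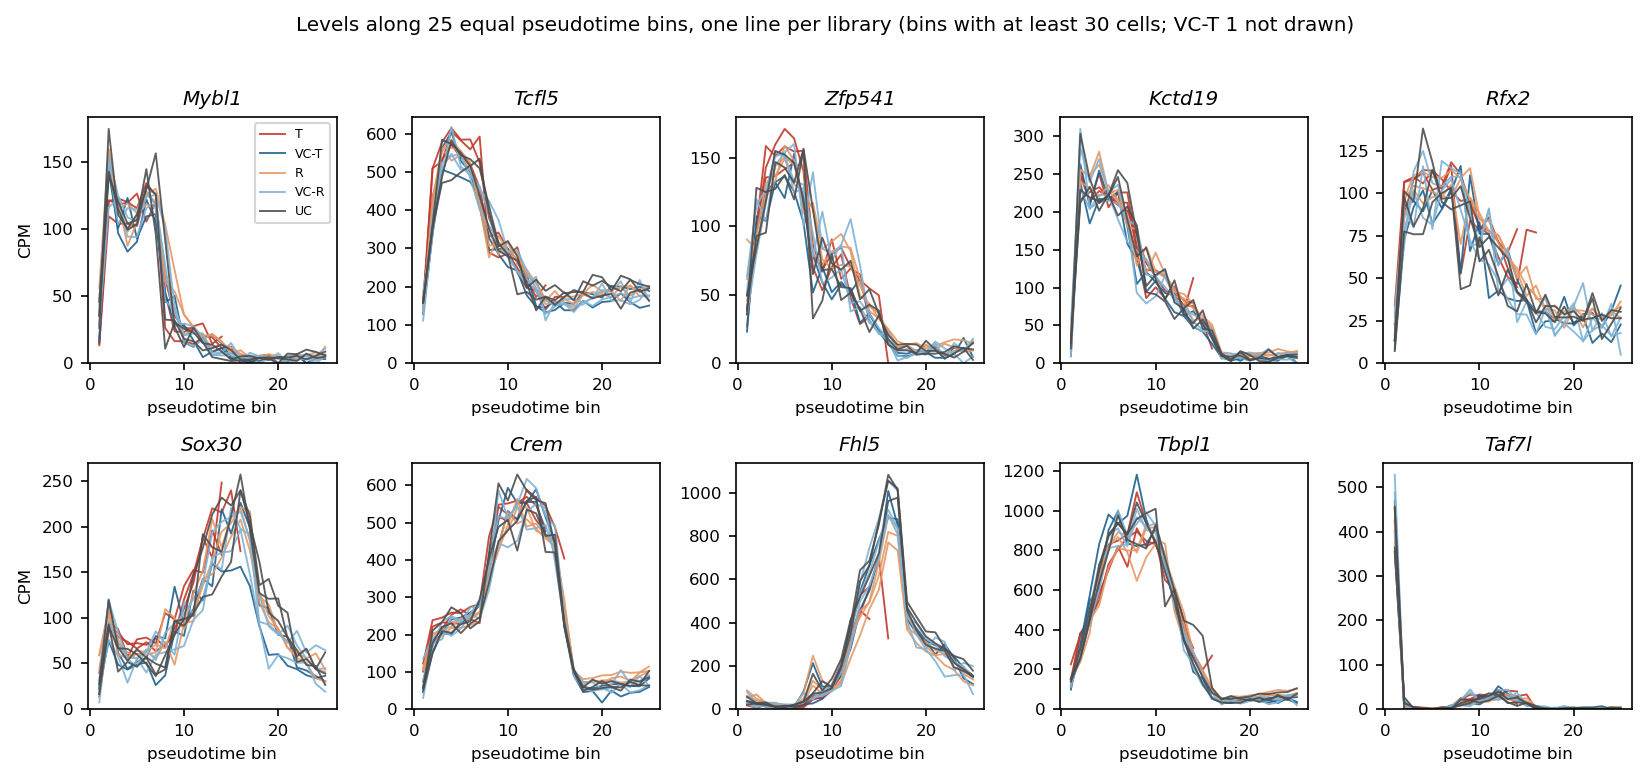
Level of each gene (CPM, linear axis) along 25 pseudotime bins, with 1 line per library in bins of at least 30 cells, colored by group, and VC-T 1 not drawn. The maxima move from bin 1 (Taf7l) to bin 16 (Sox30 and Fhl5), and the T lines end at bins 14 to 16.

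Promoter sequence from RefSeq (GRCm38.p6, the 250 bases before the annotated start) was at hand for 7 of the 10 genes, with 8 promoters, since Fhl5 had a pair. Each was searched on both strands for core letters of the motifs that the regulators' own families bind. The letters AACNG, bound by MYB factors, were in 8 of 8 but also in 74.2% of 32817 promoters. The full cAMP response element TGACGTCA was in 0 of 8 and in 1.55% of all, and its core TGACG was in Rfx2 only (17.7% of all). The E-box CACGTG was in Taf7l only (6.02%), the SOX core ACAAT in Fhl5, Sox30 and Taf7l (27.7%), and the RFX core GTTGCC in Rfx2 only (10.4%). The windows below show a family's own letters in a family member (Rfx2, Sox30), the SOX letters in the late gene Fhl5, and the E-box in Taf7l, with the matched letters in capitals. The capitals of Rfx2 overlap a MYB match. A match describes letters and is not evidence of binding.
Rfx2, chr17:56831099-56831144, minus strand: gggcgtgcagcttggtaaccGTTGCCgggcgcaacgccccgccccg
Sox30, chr11:45980265-45980309, plus strand: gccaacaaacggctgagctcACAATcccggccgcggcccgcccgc
Fhl5, chr4:25242871-25242915, minus strand: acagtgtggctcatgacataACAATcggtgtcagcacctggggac
Taf7l, chrX:134476514-134476559, minus strand: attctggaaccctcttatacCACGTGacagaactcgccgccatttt

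The comparison of JQ1-treated with control testes asked whether these regulators differed within a cell class. UMIs were summed per library and class and fitted with edgeR's quasi-likelihood test, with p-values adjusted over all genes tested (Benjamini-Hochberg) and a threshold of 0.05. Levels in these comparisons are CPM scaled by edgeR's TMM factors, and each fold change is given on the log2 scale with its standard error (SE). T versus UC and T versus VC-T share the T libraries, and R versus UC shares its controls with T versus UC, so they do not support one another independently. In spermatocyte-like cells, 0 of the 10 genes passed in T versus UC, 2 had an unadjusted p under 0.05 and DESeq2 called 1 (Taf7l), while 1.79% of 12549 genes tested passed. Tcfl5 was at 530 ± 39.1 in T and 498 ± 22.3 in UC (log2 fold change 0.09, SE 0.07), Mybl1 at 113 ± 7.80 and 116 ± 14.2 (-0.04, SE 0.10), and Kctd19 at 213 ± 7.79 and 216 ± 20.2 (-0.02, SE 0.08). Zfp541, Rfx2, Sox30 and Crem also lay within 0.2 of 0 on the log2 scale. The intervals of 2 SE for these 7 genes reached no further than 0.42 from 0. Tbpl1 was at 637 ± 60.1 in T and 731 ± 48.6 in UC (-0.20, SE 0.09, interval -0.37 to -0.02, adjusted p = 0.28).

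Taf7l and Fhl5 had the widest differences there. Taf7l was at 5.82, 3.37 and 5.08 in T and 9.62, 17.3 and 19.7 in UC, all T below all UC (log2 fold change -1.71, SE 0.33, adjusted p = 0.058). Fhl5 was at 22.7, 10.0 and 9.03 in T and 133, 16.6 and 23.3 in UC (-2.03, SE 0.82, adjusted p = 0.23), a difference carried by UC 1. All these levels of Taf7l and Fhl5 lay below the UC somatic level of the gene and are not read as expression. The labels do not pair T with UC mice by replicate number, and same-numbered libraries deviated together to unequal degrees. In an alternative edgeR fit with that number as a block both genes passed (Taf7l -1.65, adjusted p = 0.021, and Fhl5 -1.69, adjusted p = 0.018). One pachytene-like cluster, number 25, held 33.9% of the spermatocyte-like cells of UC 1 and 0.0 to 6.97% elsewhere. Without it Fhl5 was at -0.19 (adjusted p = 0.75) and Taf7l at -1.78 (adjusted p = 0.0024).

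Against VC-T 2 and VC-T 3, 1 of 10 genes passed in spermatocyte-like cells, where 7.61% of all genes passed. Taf7l was at 5.85, 3.40 and 5.19 in T and 45.0 and 18.3 in VC-T (-2.74, SE 0.35, adjusted p = 0.0016). The levels in T and in VC-T 3 lay below the UC somatic level. The Taf7l values of both groups mix spermatocyte stages. Cluster 23, the leptotene cluster with high Taf7l, held 0.464 to 0.832% of the spermatocyte-like cells in T against 33.2% in VC-T 2, 18.6% in VC-T 3 and 5.99 to 19.2% in UC. VC-T 1 had 0.662% there, and its Taf7l level in leptotene-zygotene-like cells was 21.0 plain CPM, against 249.7 in VC-T 2 and 186 in VC-T 3 and 15.9 to 22.6 in T. When equal numbers of cells were drawn from each library along pseudotime (250 per library), Taf7l was at 0.28 (SE 0.30, adjusted p = 0.61), while Tbpl1, at -0.31 before (adjusted p = 0.12), passed at -0.37 (SE 0.09, adjusted p = 0.0073). The same draw against UC (303 per library) had Tbpl1 at -0.23 (adjusted p = 0.020), Sox30 at 0.37 (adjusted p = 0.045) and Taf7l at 0.65 (adjusted p = 0.18). Over all genes 1284 passed in the UC draw, against 224 without matching, so these member calls are not particular to the 10 genes. The count over all genes in the VC-T draw is not given here. In spermatogonia-like cells, where Taf7l is highest, its plain CPM was 295, 369 and 334 in T and 355, 391 and 289 in UC, and the groups overlapped. Leptotene and zygotene markers were lower in T for 4 of 7 genes against VC-T and 2 of 7 against UC, and their part in the Taf7l result was addressed only by the matched draw.

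In spermatid-like cells, 5 of 10 genes passed in T versus UC, 3 higher and 2 lower, where 41.2% of all genes passed. That share is near the background, so the count is not a result about these genes. Their median log2 fold change was 0.18, against 0.04 over all genes tested. Fhl5, the CREM coactivator, had the largest fold change of the 10 genes and was the 1 member past 2-fold. Of the 12229 genes tested, 1364 passed with more than a 2-fold change, a share near that of the members. Fhl5 was at 236, 222 and 205 in T and 526, 538 and 442 in UC, so that every T library lay below every UC library, and the somatic cell level was 84.9 CPM in T. The fold change was -1.17 on the log2 scale (SE 0.08, adjusted p = 9.1e-08), or 2.26-fold lower, with an interval of 2 SE from -1.34 to -1.01. Crem itself did not pass: it was at 521, 526 and 505 in T and 608, 583 and 507 in UC (-0.13, SE 0.07, adjusted p = 0.16, interval -0.26 to 0.01).

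Sox30 was lower, at 152, 137 and 139 in T and 168, 196 and 162 in UC (-0.29, SE 0.09, adjusted p = 0.014). The 3 genes that were higher stand beside 2274 higher among the 12229 genes tested, and their count is not a result about early regulators. Tbpl1 was at 602, 680 and 653 in T and 555, 511 and 545 in UC (0.26, SE 0.06, adjusted p = 0.0042), Rfx2 at 67.7, 72.1 and 72.6 against 52.2, 53.6 and 60.6 (0.33, SE 0.10, adjusted p = 0.014), and Mybl1 at 21.4, 22.4 and 15.8 against 14.3, 10.7 and 13.1 (0.69, SE 0.18, adjusted p = 0.0065). In T, somatic cells read 42.5 CPM for Mybl1 and 543 for Tbpl1 (52 cells, 117762 UMIs), against 11.7 and 324 in UC. The Mybl1 values rest on 5 UMIs in T and 3 in UC and do not place its spermatid-like level above or below them. Tcfl5, Zfp541, Kctd19 and Taf7l did not pass, with log2 fold changes of 0.12 to 0.31.

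Marker levels and cluster shares within the class differed between T and UC. Spermatid markers were lower in T for 7 of 7 genes and spermatozoa markers for 5 of 5 (summed levels 1288 to 1591 CPM in T and 2497 to 2730 in UC), while late pachytene to dividing markers were higher for 4 of 7. The latest spermatid-like cluster, number 14, held 2.70 to 6.88% of the class in T and 20 to 31.4% in UC. Sertoli markers were lower in T for 2 of 2 tested against UC (median -1.78) and 4 of 4 against VC-T (median -2.03), with summed levels of 6.22 to 16.3 CPM in T, 31.2 to 45.9 in UC and 35.4 to 59.0 in VC-T 2 and VC-T 3, and their part in the results was not tested. Fewer late cells and lower late genes within cells cannot be told apart from these values. With 328 cells per library drawn to match pseudotime, Fhl5 was the member that still passed (-0.44, SE 0.09, adjusted p = 0.00097), while Sox30 was at 0.041 and Tbpl1 at -0.063. In that draw 1217 of 9495 genes passed, so 1 member of 10 is near the share of all genes. In bin 12 of pseudotime Fhl5 was at 315, 364 and 349 CPM in T and 412, 388 and 346 in UC, which overlapped, and in bin 14 at 561, 566 and 417 in T and 615, 686 and 666 in UC, which did not. The highest Fhl5 bin of any T library was 457 to 707 CPM, at bins 13 to 15.

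**Figure D3:**
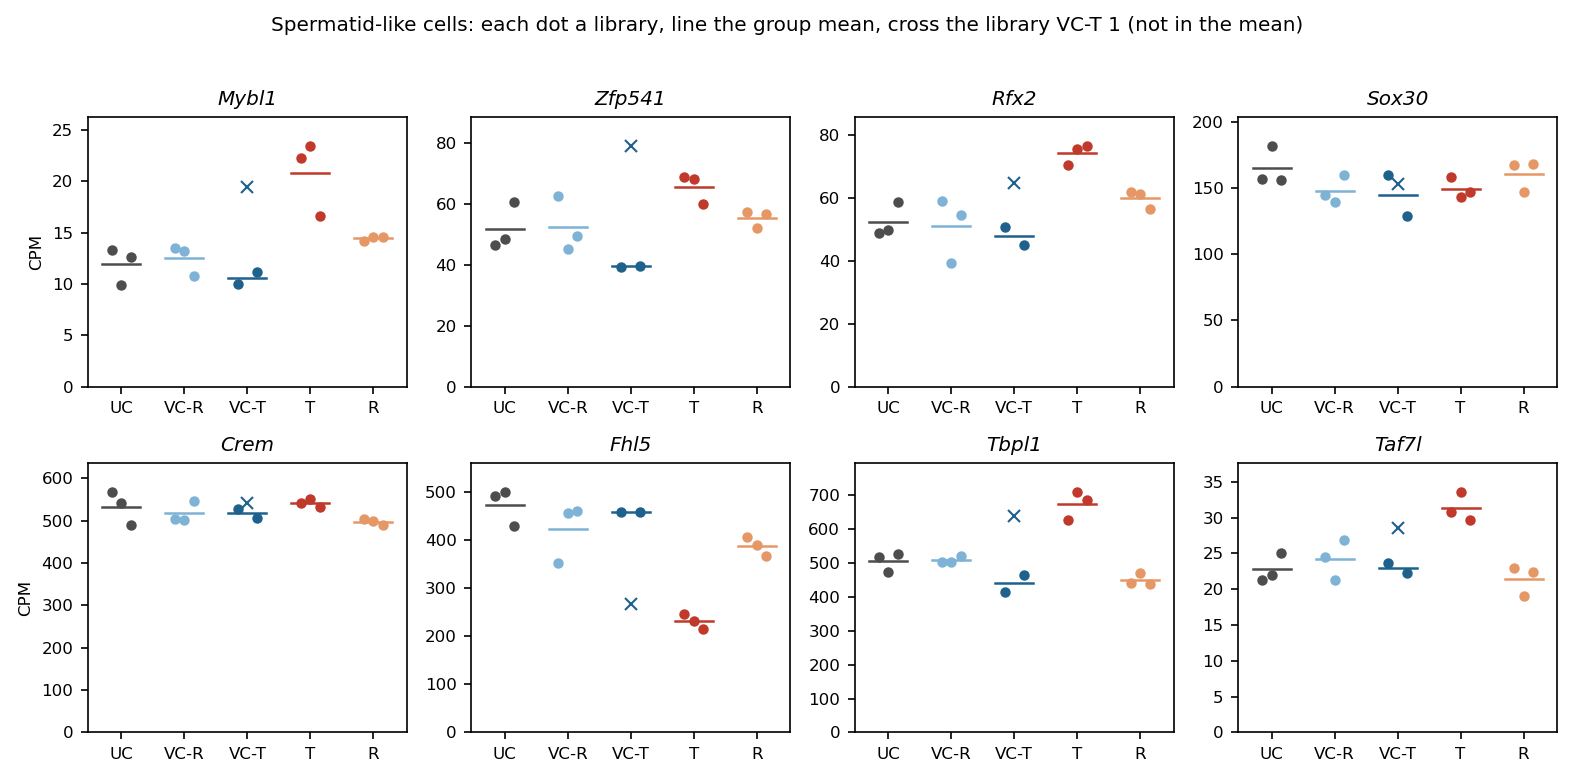
Level of 8 of the genes in spermatid-like cells (CPM, linear axis from 0), with a dot per library, a line at the group mean and a cross for VC-T 1, which is not in the mean. Fhl5 lies at 216 to 246 CPM in T and 428 to 499 in UC, VC-T 1 lies with T at 266, and Crem overlaps between T and UC.

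Against VC-T 2 and VC-T 3, 5 of 10 genes passed in spermatid-like cells, 4 higher and 1 lower, where 36% of all genes passed (member median 0.27). Fhl5 was at 233, 222 and 206 in T and 471 and 525 in VC-T (-1.17, SE 0.10, adjusted p = 3.4e-05). It was the 1 member past 2-fold, beside 2185 of 13646 genes tested. Zfp541 was at 65.0, 65.2 and 57.1 in T and 40.3 and 45.4 in VC-T (0.56, SE 0.13, adjusted p = 0.0085), with T somatic cells at 119 CPM from 14 UMIs. Tbpl1 (0.42, adjusted p = 0.022), Rfx2 (0.44, adjusted p = 0.016) and Mybl1 (0.83, adjusted p = 0.014) were also higher, and Crem was at -0.12 (adjusted p = 0.36). VC-T 2 stood apart in makeup: low-UMI clusters 9 and 13 held 56.7% of its spermatid-like cells, against 7.28% in VC-T 3 and 5.09 to 6.88% in T. Cluster 14 held 18.3% in VC-T 2, 33.7% in VC-T 3 and 2.70 to 6.88% in T. Spermatid markers were lower in T for 5 of 7 genes and spermatozoa markers for 5 of 5. Late pachytene to dividing markers were higher for 4 of 7. No value without the low-UMI clusters is given for this comparison. With pseudotime matched (290 cells per library) none of the 10 passed, and Fhl5 was at -0.24 (SE 0.15, adjusted p = 0.46), where 220 of 9437 genes passed. In plain CPM, VC-T 1 had Fhl5 at 266, Zfp541 at 78.9, Mybl1 at 19.5, Rfx2 at 64.6 and Tbpl1 at 638 in this class. Each lay nearer to T than VC-T 2 and VC-T 3 did, and with VC-T 1 among the controls none of the 10 genes passed in either class. With it 59 genes of all passed in spermatocyte-like and 0 in spermatid-like cells, against 1012 and 4914 without it, so the loss was not particular to these genes.

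**Figure D4:**
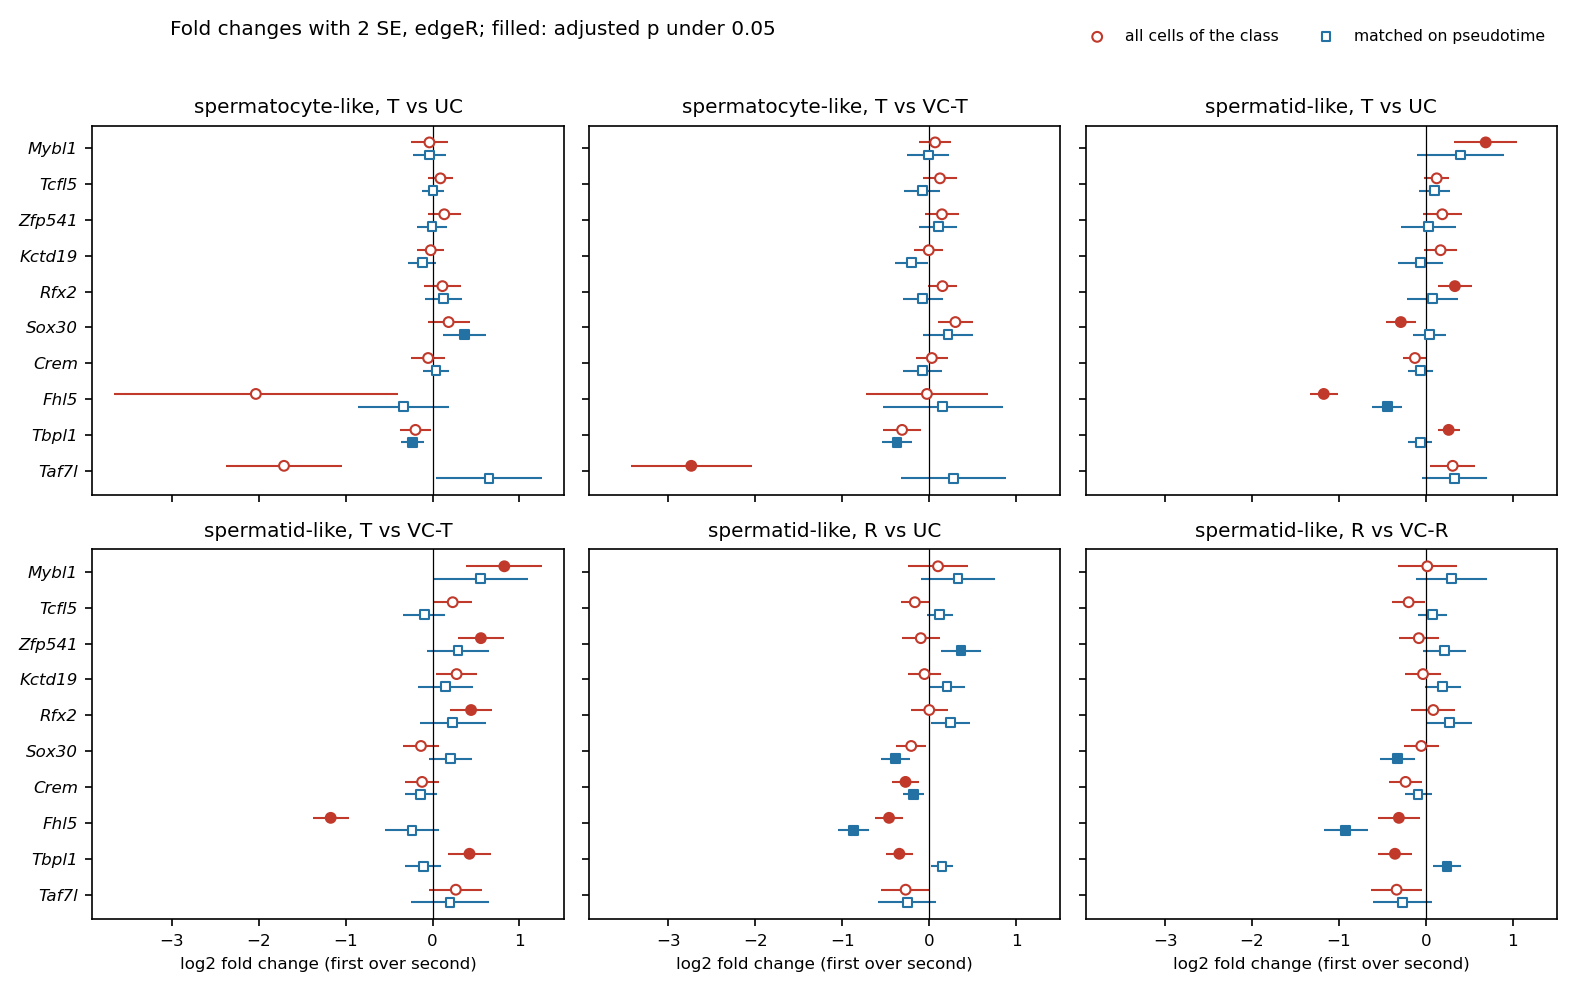
Log2 fold change of each gene (first group over second) with an interval of 2 SE in 6 class comparisons. Red circles use all cells of the class and blue squares the cells matched on pseudotime, and filled symbols passed the edgeR test. Fhl5 in spermatid-like cells of T against UC is at -1.17 with all cells and -0.44 when matched.

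The genes around these regulators were described from lists of 25 partners and relatives, 8 CREM-dependent spermatid genes and 5 piRNA pathway genes driven by A-MYB. In spermatid-like cells of T against UC, 8 of 8 CREM-dependent genes were lower, with a median of -1.55: the protamine genes Prm2 (-4.50) and Prm1 (-4.29) and the transition protein genes Tnp2 (-3.57) and Tnp1 (-2.39) had the lowest values. Prm1 in UC spermatid-like cells (4934 ± 610 CPM) and Tnp1 (3123 ± 332) lay below the UC somatic cell levels of 14173 and 6291 CPM, so these levels are not read as expression and the part of free RNA in the differences was not tested. The paper uses Prm1 and Prm2 as spermatozoa markers. The latest spermatid-like cluster, number 14, held a smaller share of the class in T than in UC. Its part in the CREM-dependent values was not tested, and no matched value is given for these genes. Among 19 partners tested, 6 were higher, such as Elmsan1 and Gtf2a1 (both 0.82), and 4 lower, such as Creb3l4 (-0.75), a CREB-family factor of spermatids. The 10 of 19 partners and 2 of 5 piRNA genes that passed stand beside 41.2% of all genes and are no result about those lists. The general factor gene Tbp was higher (0.51), and of the piRNA genes Tdrd5 (1.15) and Piwil1 (0.93) were higher. Against VC-T, 8 of 8 CREM-dependent genes (median -1.91), 6 of 19 partners (5 higher, 1 lower) and 2 of 5 piRNA genes passed, and the last pair of counts is near the 36% of all genes. Cluster 14 also held a smaller share in T than in VC-T 2 and VC-T 3. Here too its part was not tested, and no matched value is given for the CREM-dependent genes. In spermatocyte-like cells of T against UC, 2 of 8 CREM-dependent genes (Prm2 and Prm1), 1 of 19 partners (Dnttip1, -0.84) and 0 of 5 piRNA genes passed, where 1.79% of all genes did. Prm1 was at 1552 to 8789 CPM across the UC libraries, below the UC somatic level, so it is not read as expression here either. Spermatozoa markers were lower in T for 1 of 5 genes (median -2.77). Their summed levels were 78.6 to 163 CPM in T and 362 to 1673 in UC, and the part of free RNA was not tested. Against VC-T 5 of 8, 5 of 21 and 2 of 5 passed, where 7.61% of all genes did, among the partners Taf1 (-3.47), a TFIID subunit. Taf1 was low, at 0.807 ± 0.269 CPM in T and 5.62 to 11.9 in VC-T. Leptotene cluster 23 held 0.464 to 0.832% of the class in T against 33.2% in VC-T 2 and 18.6% in VC-T 3. No matched value is given for Taf1. Spermatozoa markers were lower in T for 5 of 5 genes (median -1.24) and Sertoli markers for 1 of 4 tested (median -1.63), and their part was not tested.

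The recovery groups asked how the genes stood 6 wk after dosing ended. In spermatocyte-like cells 0 of 10 genes passed in R versus UC by edgeR, with 0 at an unadjusted p under 0.05 and 0 by DESeq2, where 0.00719% of all genes passed. Fhl5 was at -0.99 (interval of 2 SE -2.50 to 0.51) and Taf7l at -0.64 (interval -1.28 to -0.01), intervals that still hold large differences. Without cluster 25, Fhl5 passed with the opposite sign (0.53, SE 0.13, adjusted p = 0.017) and 1166 genes of all passed, against 1 with it and 385 by DESeq2. In R versus VC-R the count was likewise 0 of 10 (0 at unadjusted p and 0 by DESeq2), where 0% passed, and log2 fold changes ran from -0.10 to 0.22. No listed partner, CREM-dependent or piRNA gene passed in either.

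In spermatid-like cells of R against UC, 3 of 10 were lower, where 41.9% of all genes passed. Fhl5 was at 383, 377 and 339 in R and 527, 543 and 446 in UC (-0.46, SE 0.08, adjusted p = 4.8e-05). Crem was at 475, 483 and 453 against 608, 588 and 511 (-0.27, SE 0.08, adjusted p = 0.0061), and Tbpl1 at 417, 455 and 406 against 556, 515 and 549 (-0.34, SE 0.08, adjusted p = 0.00063). All R libraries lay below all UC libraries for these 3 genes. R libraries differed in makeup: low-UMI clusters 9 and 13 held 60.9 to 72.4% of their spermatid-like cells and 9.94 to 17.2% in UC. Spermatid markers were lower in R for 5 of 7 genes, and Sertoli markers were higher for 4 of 6 tested (median 0.98, summed levels 78.8 to 94.9 CPM in R and 31.2 to 45.9 in UC), and the part of Sertoli RNA was not tested. Without those clusters Fhl5 alone passed (-0.38, SE 0.07, adjusted p = 0.0010), Crem was at -0.09 and Tbpl1 at -0.01, and 748 of 12315 genes passed, against 5778 with them. Matched on pseudotime (413 cells per library), Fhl5 was at -0.87 (SE 0.09, adjusted p = 8.3e-08), Crem at -0.18 and Tbpl1, with the opposite sign, at 0.15 (adjusted p = 0.082), where 3297 of 11100 genes passed. That draw kept the low-UMI clusters. Pooled by cluster, Fhl5 was lower in R than in UC in clusters 3 (76.3 and 111 CPM), 16 (137 and 174), 6 (485 and 494) and 14 (738 and 862). In clusters 9 (427 and 411) and 13 (337 and 177) it was higher in R.

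Against VC-R, 2 of 10 were lower in spermatid-like cells, where 34.6% of all genes passed. Tbpl1 was at 419, 454 and 405 in R and 506, 558 and 570 in VC-R (-0.36, SE 0.10, adjusted p = 0.0087). Fhl5 was at 385, 375 and 339 in R and 352, 505 and 502 in VC-R (-0.31, SE 0.12, adjusted p = 0.049), and these groups overlapped. Spermatid markers were lower for 3 of 7 genes and Sertoli markers higher for 3 of 6 tested (median 1.21, summed levels 18.8 to 56.9 CPM in VC-R). Without the low-UMI clusters neither passed (-0.03 and -0.21), and 2 genes of all did, against 4827 with them. Matched on pseudotime (418 cells per library), Fhl5 was at -0.92 (SE 0.13, adjusted p = 6.1e-05) and Tbpl1 at 0.24. That draw also kept the low-UMI clusters. Pooled by cluster, Fhl5 was lower in R than in VC-R in clusters 3 (76.3 and 98.7 CPM) and 14 (738 and 790). It was higher in R in clusters 6 (485 and 480), 16 (137 and 133), 9 (427 and 402) and 13 (337 and 236). Of the lists in this class, 11 of 19 partners passed against UC (4 higher, 7 lower) and 8 of 19 against VC-R (2 higher, 6 lower), with Rfx3, a ciliogenic RFX factor, higher in both (1.06 and 0.85). Of CREM-dependent genes 3 of 8 passed against UC and 1 of 8, Prm1 (0.38), against VC-R, and of piRNA genes 3 of 5 passed against each. These list counts stand beside 41.9% (UC) and 34.6% (VC-R) of all genes and are no result about the lists. No value without the low-UMI clusters is given for Rfx3.

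In spermatozoa-like cells, present in R, VC-R and UC, 3 of 10 genes passed in R versus UC, where 7.99% of all genes passed. Fhl5 was lower, at 338, 343 and 285 in R and 395, 398 and 391.97 in UC (-0.29, SE 0.07, adjusted p = 0.0081). Pooled by cluster, Fhl5 was lower in R than in UC in clusters 0 (282 and 345 CPM), 1 (528 and 677) and 26 (291 and 301). It was higher in R in clusters 2 (104 and 96.7) and 8 (97.1 and 45.8). Crem was at 82.1, 81.1 and 88.7 in R and 67.3, 70.3 and 73.9 in UC (0.25, SE 0.08, adjusted p = 0.043), and Kctd19 at 11.2, 10.7 and 12.6 against 9.62, 7.30 and 8.49 (0.46, SE 0.15, adjusted p = 0.046), both below the somatic cell level. In the same cells spermatid markers were higher in R for 4 of 7 genes (median 0.435) and Sertoli markers for 3 of 6 tested (median 1.08, summed levels of the list 64.0 to 75.3 CPM in R and 30.7 to 35.5 in UC), and their part in these results was not tested. Makeup differed as well: cluster 21 held 309, 258 and 761 of the 2686, 2826 and 3770 cells in R. In UC it held 2, 10 and 23 of 1646, 1724 and 2127. Its pooled levels in R were 208 CPM for Crem, 32.5 for Kctd19 and 180 for Fhl5. Those of the other clusters of the class in R were 72.5 to 115, 9.91 to 18.3 and 97.1 to 528. No value without cluster 21 is given for these calls. These calls were not stable: 1 gene passed under DESeq2, 0 when all groups were fitted together and 0 without R 3. Against VC-R 0 of 10 passed by edgeR (0 at unadjusted p, 0 by DESeq2), where 0% of all genes passed, and Fhl5 was at -0.16. That 0% is not a stable absence of difference: 1985 genes had an unadjusted p under 0.05, 266 passed with no low count filter and 1481 passed without VC-R 1, Kctd19 among them. In T this class held 1, 1 and 3 cells and was not tested. Of the lists, 1 CREM-dependent gene, Odf1 (0.43), passed against UC and none against VC-R.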

How the data were processed

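The authors deposited raw UMI counts per gene and cell for 15 libraries (10x Genomics, mm10). The labels and methods name Cell Ranger 3.0.0 and the file headers 7.0.0, and intron counting is not given in the sources used here. The authors' ambient RNA and doublet corrections are not in these counts. Cells with at least 500 genes, 1000 UMIs and at most 30% mitochondrial UMIs were kept, the 5.4% with the highest doublet scores were removed, and 2000 variable genes (without the 10 genes and their lists), 30 components and 20 neighbours gave Leiden clusters at resolution 1.2 (scanpy 1.11.5). Clusters were named from marker lists with a margin of 0.6, set after the scores were seen, and cells of unnamed clusters entered no class. Counts were summed per library and class and fitted with edgeR 4.0.16 (filterByExpr, TMM, quasi-likelihood, Benjamini-Hochberg over all genes, threshold 0.05), with DESeq2 1.42.0 as an alternative. VC-T 1 was left out of T versus VC-T as in the study. Each library is 1 mouse, so p-values measure the spread between these mice. The 10 genes, lists and tests were chosen with earlier results of these data known. The 10 genes were followed in each comparison, list genes were named from the 4 of each list with the largest folds among those passing, and nearest genes had a mean of at least 5 CPM. On simulated counts for spermatocyte-like T versus UC (12549 genes), 52 of 100 genes changed 2-fold and 90 of 100 changed 4-fold were recovered. Same-numbered libraries correlated at 0.664, 0.41 and 0.129 in that comparison, so the blocked fit is given there as an alternative. The labels give no pairing of mice by that number. Reads from genes on the opposite strand overlapping Tcfl5, Kctd19, Crem, Fhl5 and Tbpl1 were counted separately, with at most 2124 UMIs each. Alternatives were other normalizations and filters, UMI minimums, matched pseudotime, left-out clusters and left-out libraries.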

Additional observations from a re-analysis of the deposited data

Results flagged for a closer look

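For some genes the fitted values had opposite signs in a pair of cell classes under one comparison, with the libraries of the compared groups not overlapping in either class. The difference between classes was not tested, and most of these values did not pass the edgeR test on their own. Crem in R versus UC passed in both classes, at -0.27 in spermatid-like and 0.25 in spermatozoa-like cells, and at -0.18 and 0.27 with cells matched on pseudotime. Its spermatid-like value was -0.09 without the low-UMI clusters and did not pass, its spermatozoa-like level lay below that of UC somatic cells, and its spermatozoa-like call was lost in one fit of all groups and without R 3. In T versus VC-T, Taf7l was at -2.74 in spermatocyte-like cells (passed) and 0.27 in spermatid-like cells (did not pass), and Tbpl1 at -0.31 (did not pass) and 0.42 (passed). Neither value passed for Taf7l in T versus UC (-1.71 and 0.31), Taf7l in R versus UC (-0.27 in spermatid-like and 0.66 in spermatozoa-like cells) or Crem in R versus VC-R (-0.23 and 0.2). With cells matched on pseudotime the signs were no longer opposite in T: Taf7l in spermatocyte-like cells was at 0.65 against UC and 0.28 against VC-T, and Tbpl1 against VC-T was at -0.37 and -0.11.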

How the results depend on the processing

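Of 301 alternative values for the 19 folds that passed, 230 kept direction and call, 65 kept direction only and 6 reversed. All 6 reversals came with matched pseudotime: Sox30 0.041 and Tbpl1 -0.063 (spermatid-like, T versus UC), Taf7l 0.28 (spermatocyte-like) and Tbpl1 -0.11 (spermatid-like, T versus VC-T), and Tbpl1 0.15 and 0.24 (spermatid-like, R versus UC and VC-R). In spermatocyte-like cells the count of genes passing in T versus UC went from 0 to 1 (Taf7l) under DESeq2, no filter, one fit of all groups, doublets kept, cluster 25 left out or VC-T added, and to 2 with the replicate block and with matching. R versus UC went from 0 to 1 without cluster 25, and T versus VC-T from 1 to 0 with VC-T 1. In spermatid-like cells T versus UC went from 5 to 1 when matched and 8 with unnamed clusters, T versus VC-T from 5 to 0 when matched or with VC-T 1 and 8 with unnamed clusters, R versus UC from 3 to 1 and R versus VC-R from 2 to 0 at 2000 UMIs or without low-UMI clusters. Spermatozoa-like R versus UC went from 3 to 1 under DESeq2 or RLE and 0 in one fit. The cause was not tested.

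Leaving out 1 library gave 0 to 1 (spermatocyte-like, T versus UC; 1 without UC 1), 3 to 6 (spermatid-like, T versus UC; 3 without T 2 or UC 2), 1 to 1 and 1 to 6 (T versus VC-T; 1 without T 2, 3 without T 3, with a lone VC-T library assumed to vary like the others), 0 to 0 and 2 to 4 (R versus UC), 0 to 3 (spermatozoa-like, R versus UC; 0 without R 3, 1 without R 1, UC 1 or UC 2), 0 to 0, 0 to 3 (spermatid-like, R versus VC-R; 0 without R 1, R 3 or VC-R 3, 1 without R 2 or VC-R 2) and 0 to 1 (spermatozoa-like, R versus VC-R; 1 without VC-R 1). Fhl5 in spermatid-like cells passed in T versus UC in every alternative, at -1.30 to -1.12 with a library left out. Over all genes, counts ran from 146 to 1284 around 224 (spermatocyte-like, T versus UC; 1 to 663 with a library left out), 1217 to 7203 around 5038 (spermatid-like), 59 to 2151 around 1012 and 0 to 7175 around 4914 (T versus VC-T), 0 to 1166 around 1, 748 to 6116 around 5778 and 223 to 1328 around 961 (R versus UC), and 2 to 5002 around 4827 and 0 to 266 around 0 (spermatid-like and spermatozoa-like, R versus VC-R; the latter 1481 without VC-R 1).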
